A study of Mus musculus with 9 samples.

Results

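The collagen and laminin genes of the mouse were examined in 3 layers of the piriform cortex, the part of the cerebral cortex that receives input from the olfactory bulb. Members were taken by name: every protein-coding gene whose symbol is Col, a number, a and a number, or Lama, Lamb or Lamc and a number. This rule was set with earlier results of these data known. Of 55 such genes in the annotation, 54 had a counted transcript, out of 20897 protein-coding genes that had one. Each gene is represented by the transcript with the highest mean count over all libraries. The 54 members are 11 fibrillar collagens, 8 collagens of basement membranes, 11 laminin chains and 24 other collagens, and 43 of them had enough counts to be tested.

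RNA came from tissue that a laser cut out of frozen brain sections, with 3 libraries from each of the layers lettered A, B and C. All mice were wild type, of the strain C57BL/6 and 8 weeks old by the sample labels, while the study's methods give an older age, so the layers differ by position and not by genotype or treatment. No source used here says which letter is which of the numbered layers. Nor does any source say how many animals were used or which libraries share one, so the p-values below measure the spread between libraries, which may be technical. A laser-cut layer holds all of its cells together, and fewer cells of a type cannot be told apart from less RNA per cell.

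Collagens are built from chains that wind around each other in a triple helix, which needs a glycine at the start of each step of the chain. Fibrillar collagens, of types I, III, V and XI among others, line up into the tough fibres of skin, tendon, bone and the coverings of the brain. Collagen IV and the laminins instead form basement membranes, thin sheets that in the brain surround blood vessels and lie below its outer surface. A laminin is a cross of an alpha, a beta and a gamma chain, and the choice of chains differs between tissues. The adult brain itself holds little fibrillar collagen.

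The difference between both kinds of collagen can be read in their coding sequence. The stretches below are from the GENCODE M21 transcripts of GRCm38, 81 bases each, and capitals mark the glycine codons that open a triplet within a run of such triplets. The genes were chosen for display as the main chains of collagen I and of collagen IV. Those of Col1a1 (codons 168 to 194) and Col1a2 (codons 97 to 123) show the start of the longest run, and those of Col4a1 (codons 148 to 174) and Col4a2 (codons 960 to 986) show where it ends.
Col1a1: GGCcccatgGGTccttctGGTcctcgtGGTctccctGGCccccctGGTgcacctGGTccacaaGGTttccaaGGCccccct
Col1a2: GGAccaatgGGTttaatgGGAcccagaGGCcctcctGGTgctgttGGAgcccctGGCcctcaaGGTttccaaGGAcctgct
Col4a1: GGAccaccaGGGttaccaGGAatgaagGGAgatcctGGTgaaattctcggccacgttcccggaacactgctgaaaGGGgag
Col4a2: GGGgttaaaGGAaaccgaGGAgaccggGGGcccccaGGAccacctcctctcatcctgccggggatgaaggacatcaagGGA
All 9 triplets of both collagen I stretches begin with glycine, while in the collagen IV stretches the step is lost after 5 triplets and taken up again with the 6th capital codon. Over whole genes, the longest unbroken run of triplets was 338 in Col1a1, 339 in Col1a2, 40 in Col4a1 and 66 in Col4a2. In the 11 fibrillar collagens it ranged from 216 to 344 triplets with a median of 338, and 2 to 3 runs reached 10 triplets. In the 6 chains of collagen IV it ranged from 39 to 66 with a median of 43.5, and 16 to 19 runs reached 10 triplets. Col24a1 and Col27a1, at 216 and 217 triplets, had the shortest runs among the fibrillar collagens, still above the 113 of the longest run in any other collagen class. Runs were counted on the longest coding sequence of each gene.

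**Figure D1:**
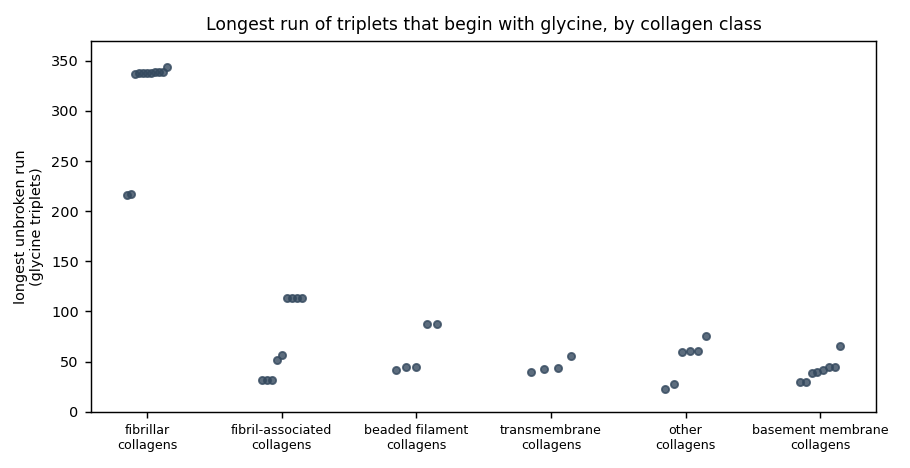
Longest unbroken run of coding triplets that begin with a glycine codon, for each of 43 collagen genes, grouped by class along the horizontal axis. Each point is 1 gene. The 11 fibrillar collagens lie at 216 triplets and above, and the 8 collagens of basement membranes lie between 30 and 66.

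The total count ranged from 23104306 to 76471683 per library, and the members took 1765 to 9877 counts of it. A count of 3, taken as the limit of detection, corresponded to 0.0255 to 0.254 normalized CPM, counts scaled to a library of standard size, with counting error alone considered. The mitochondrial ribosomal RNAs took 55.3% to 70.2% of the counts in layer A, 12.8% to 28.1% in B and 20.5% to 57.1% in C, and their part in the differences below was not tested. Leaving all mitochondrial transcripts out left 26 members past the threshold between layers A and B, as with them, and 18 in place of 19 between layers A and C, where Lamc1 lost its call. Neuron markers were present in every library, with summed levels of 3635 to 5347 CPM in layer A, 3215 to 6436 in B and 3491 to 4826 in C.

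Between layers A and B, collagens and laminins were in the main higher in layer A. Of the 43 tested members, 26 differed at an adjusted p under 0.05, 23 of them higher in layer A and 3 lower (quasi-likelihood test of edgeR, with Benjamini-Hochberg adjusted p-values over 56416 transcripts). Among all tested transcripts 16.5% differed in this comparison, 10.7% higher and 5.83% lower in layer A, against 60.5% of the tested members. The median log2 fold change was 1.98 over the tested members and -0.12 over all tested transcripts. By class, 7 of 10 fibrillar collagens, 4 of 6 collagens of basement membranes and 7 of 10 laminins were higher in layer A. Of 17 other collagens, 5 were higher and 2 were lower. Without layer A replicate 1, 17 members, all higher in layer A, and 5571 of all transcripts passed, and when each library was left out in turn the number of members ranged from 17 to 27. Of the 26, 13 passed in all 9 of these fits: Col1a1, Col1a2, Col11a2, Col4a5, Col6a2, Col8a1, Col9a3, Lama1, Lama2, Lama4, Lama5, Lamb2 and Lamc3.

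**Figure D2:**
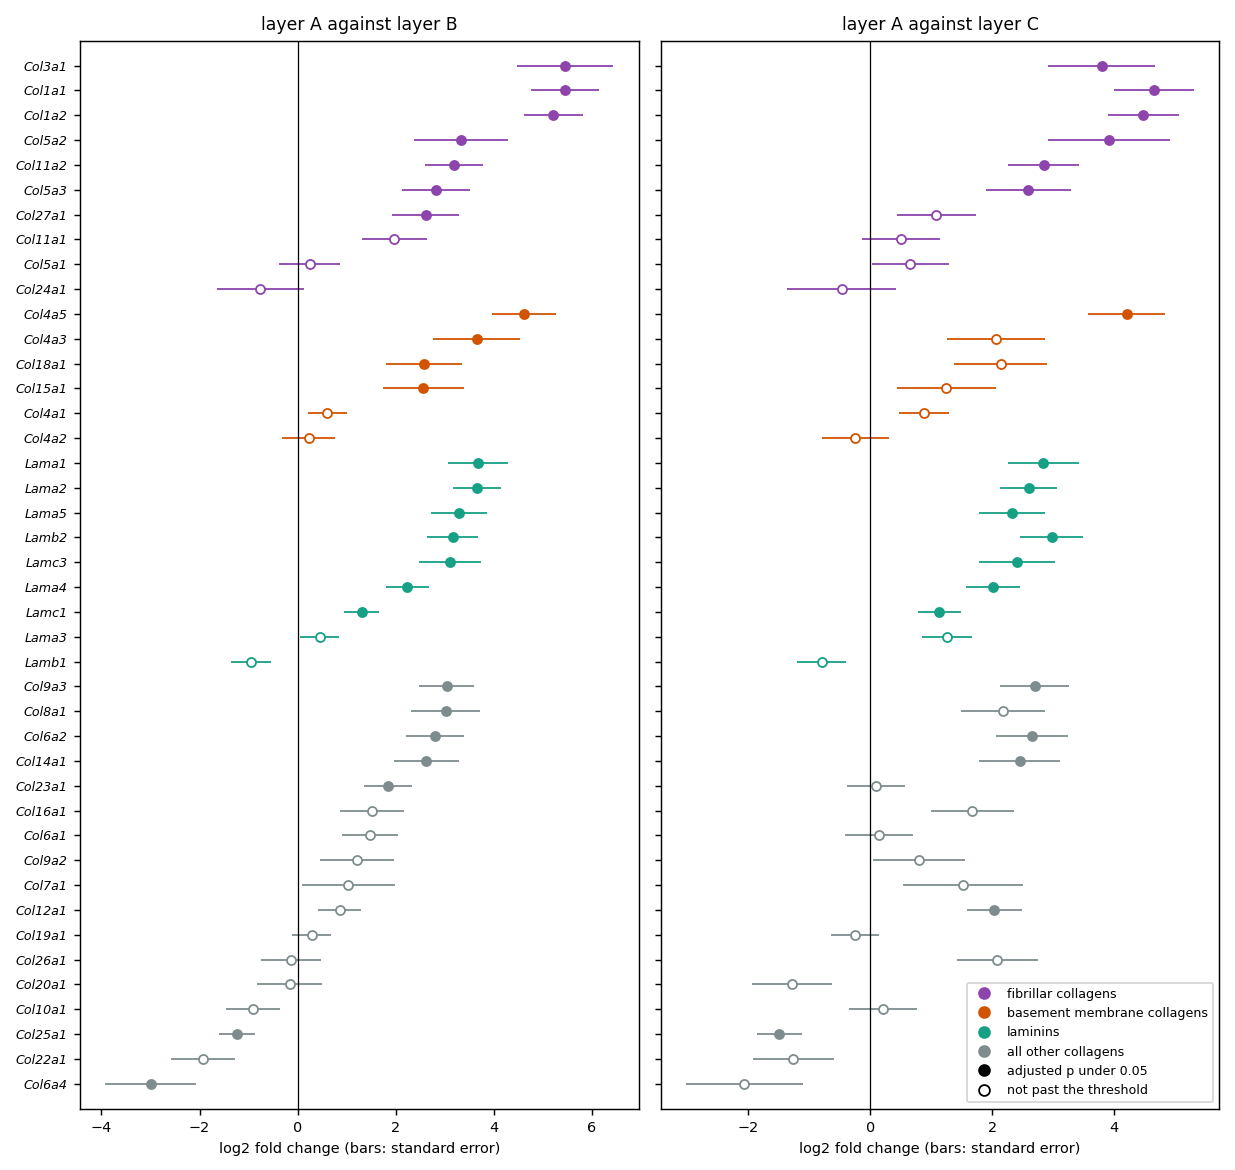
Log2 fold change of 42 of the 43 tested members between layers A and B (left) and between layers A and C (right), by class. Bars are standard errors, and filled points have an adjusted p under 0.05. Most points lie to the right of 0, from -3.00 to 5.46 on the left and from -2.06 to 4.65 on the right.

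A wide gap was seen in collagen I, the main fibre of skin, bone and the meninges. Col1a2 (ENSMUST00000031668, GRCm38 chromosome 6 from 4505493 to 4541544, plus strand), which encodes its alpha-2 chain, had 10.3, 7.94 and 17.3 normalized CPM in replicates 1, 2 and 3 of layer A. In layer B it had 0.179, 0.115 and 0.644 CPM, and in layer C 0.441, 0.573 and 0.587. Every library of layer A was over 10 times above every library of layers B and C, and the latter groups overlapped. The log2 fold change was 5.22 against layer B (standard error, SE, 0.603, edgeR adjusted p = 0.0002) and 4.47 against layer C (SE 0.582, adjusted p = 0.00146). Leaving out each library in turn kept it between 4.86 and 6.35 against layer B.
Col1a1 (ENSMUST00000001547, chromosome 11 from 94936224 to 94953042, plus strand), the alpha-1 chain, had 4.14, 2.93 and 10.3 CPM in layer A, 0.0673, 0.0692 and 0.249 in layer B and 0.196, 0.127 and 0.306 in layer C. Layer A did not overlap the others, and replicate 3 was the highest library of each layer. Its log2 fold change was 5.46 against layer B (SE 0.688, edgeR adjusted p = 0.000239) and 4.65 against layer C (adjusted p = 0.00176). Counts per kb of Col1a1 were 0.333 to 0.535 times those of Col1a2 in layer A and 0.338 to 0.541 times in layer B, so the ratio of both chains overlapped between layers while their level did not.

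**Figure D3:**
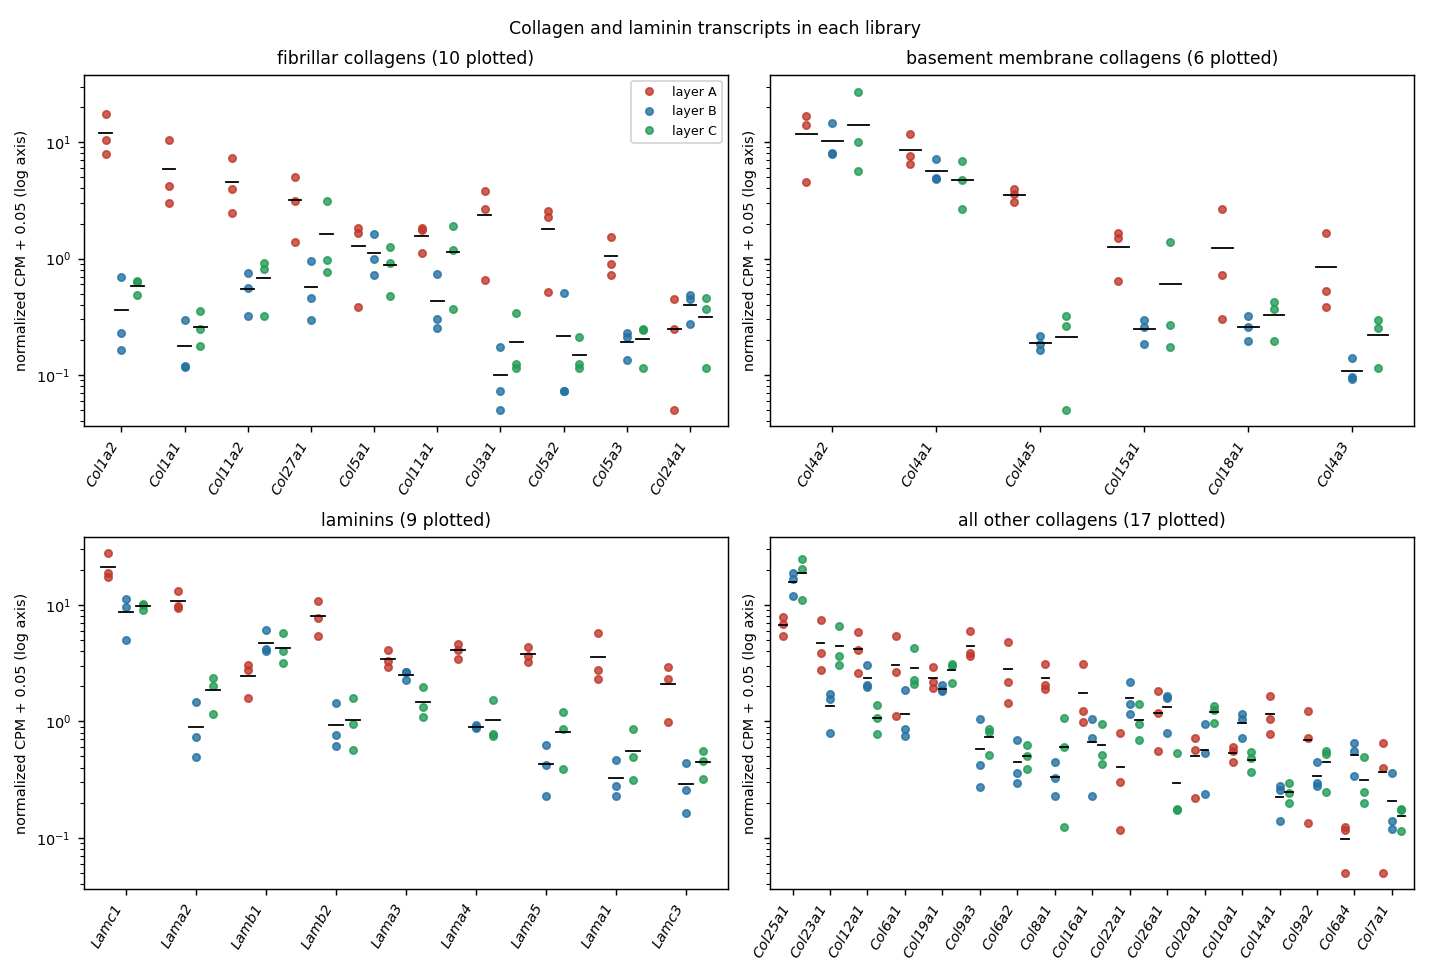
Normalized CPM plus 0.05, on a log axis, of 42 of the 43 tested members in each of the 9 libraries, in 4 panels by class. Points are libraries, coloured by layer, and horizontal lines are layer means. Levels can be compared between layers within a gene but not between genes, since they are not divided by length. For Col1a2 the layer A points lie at 7.94 CPM and above and all others below 0.7, while for Col4a1 and Col4a2 the layers overlap.

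Collagens III and V, which assemble with collagen I into fibres, were higher in layer A for 3 of 4 genes, of which Col3a1, Col5a2 and Col5a3 were named after their values were seen. Col3a1 had 2.62, 0.6 and 3.76 CPM in layer A against 0, 0.0231 and 0.125 in layer B, where its libraries held 0, 1 and 6 counts. Its log2 fold change of 5.46 (SE 0.984, edgeR adjusted p = 0.00178) therefore rests on 7 counts in layer B, and without layer A replicate 1, layer A replicate 3 or layer C replicate 3 it no longer met the count minimum. Col5a2 had 2.54, 0.467 and 2.22 CPM in layer A against 0.0224, 0.0231 and 0.457 in layer B. The lowest layer A library was only just above the highest layer B library, and the log2 fold change of 3.33 (edgeR adjusted p = 0.0253) lost its call without replicate 1 or 3 of layer A or replicate 1 or 2 of layer B, with adjusted p-values up to 0.0964. Its value without layer B replicate 3 was 6.13. Col5a3 followed with 2.82 (adjusted p = 0.0114), and without layer A replicate 3 its adjusted p was 0.0598. Col5a1, whose chain starts the growth of fibres, did not differ past the threshold. It had 1.61, 0.334 and 1.79 CPM in layer A, 0.942, 1.59 and 0.665 in layer B and 0.858, 1.21 and 0.425 in layer C, so all layers overlapped (log2 fold change 0.24 for A against B, SE 0.62, adjusted p = 0.841).

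Collagen XI and collagen XXVII, fibrillar collagens best known from cartilage, were also measured. Col11a2 had 3.89, 2.4 and 7.2 CPM in layer A, 0.269, 0.507 and 0.707 in layer B and 0.27, 0.764 and 0.859 in layer C. Layer A did not overlap the others, with log2 fold changes of 3.19 against layer B (SE 0.589, edgeR adjusted p = 0.00209) and 2.84 against layer C (adjusted p = 0.00771, and 0.0552 without layer C replicate 1). Col11a1 had 1.78, 1.07 and 1.69 CPM in layer A, 0.202, 0.254 and 0.686 in layer B and 0.319, 1.85 and 1.13 in layer C. It did not overlap between layers A and B but missed the threshold (log2 fold change 1.98, SE 0.669, adjusted p = 0.0559), and its highest library was layer C replicate 2. In 6 of 9 alternatives other than leaving out a library it did pass between layers A and B, with adjusted p-values of 0.0181 to 0.0485. With a library left out Col11a1 missed the threshold in 7 of 9 fits, at edgeR adjusted p-values of 0.0516 to 0.17. Col27a1 had 3.04, 1.33 and 5 CPM in layer A, 0.404, 0.899 and 0.249 in layer B and 0.711, 3.06 and 0.919 in layer C. It was higher in layer A than layer B (log2 fold change 2.61, SE 0.681, adjusted p = 0.0155) and not past the threshold against layer C (1.08, adjusted p = 0.339). Without layer A replicate 3 or layer B replicate 1 the adjusted p of Col27a1 against layer B was 0.0807 and 0.0524. Over the class, 3 of 9 testable fibrillar collagens passed between layers A and B without layer A replicate 3, which was the library with the most collagen I, and 5 of 9 without layer A replicate 1.

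Markers of meningeal fibroblasts, cells that make collagen I and III around the brain, moved with the fibrillar collagens. Of 12 listed markers 10 could be tested, and all 10 were higher in layer A than layer B, with a median log2 fold change of 5.07. Their summed level was 80.4 to 211 CPM in layer A, 1.86 to 10.1 in B and 4.84 to 9.42 in C, and none was at 0 in all libraries of a layer. The sum was highest in replicate 3 of layer A and of layer B, as were Col1a1 and Col1a2. The part of these cells in the fibrillar collagen difference was not tested.

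Collagens of basement membranes split by gene. Col4a1 and Col4a2 encode the chains of the collagen IV found around nearly all vessels, and neither differed between layers past the threshold. Col4a1 (ENSMUST00000033898, chromosome 8 from 11198423 to 11312826, minus strand) had 7.53, 6.4 and 11.7 CPM in layer A, 4.82, 7.17 and 4.86 in layer B and 4.66, 6.82 and 2.61 in layer C. The layers overlapped, with a log2 fold change of 0.61 for A against B (SE 0.403, edgeR adjusted p = 0.35) and of 0.89 for A against C (adjusted p = 0.193). Col4a2 had 14.1, 4.47 and 16.8 CPM in layer A, 7.87, 14.5 and 7.98 in layer B and 10.1, 26.7 and 5.6 in layer C, so that replicate 2 was the lowest library of layer A and the highest of layers B and C. Its log2 fold change was 0.23 for A against B (SE 0.542, edgeR adjusted p = 0.828) and -0.24 for A against C (adjusted p = 0.846). A p above the threshold does not show equal levels, and these standard errors leave room for differences of either sign in Col4a2.
Col4a5, a chain of the collagen IV network best known from the kidney filter and mutated in Alport syndrome, behaved otherwise. The gene (ENSMUST00000112931, chromosome X from 141475385 to 141689234, plus strand) had 3.55, 3.94 and 2.99 CPM in layer A, 0.135, 0.115 and 0.166 in layer B and 0.27, 0 and 0.213 in layer C. Layer A libraries lay close together and far above the others, with log2 fold changes of 4.62 against layer B (SE 0.649, edgeR adjusted p = 0.000365) and 4.20 against layer C (adjusted p = 0.00209). Its partner Col4a3 had 1.61, 0.334 and 0.473 CPM in layer A, 0.0897, 0.0461 and 0.0416 in layer B and 0.245, 0.0637 and 0.204 in layer C. It was higher in layer A than layer B (log2 fold change 3.65, SE 0.886, adjusted p = 0.0106), where its libraries held 4, 2 and 2 counts, and without layer A replicate 1 the adjusted p was 0.0671 at a log2 fold change of 2.75. Of the third partner, Col4a4, no library had more than 4 counts and it was not tested.
Collagens XV and XVIII, which link basement membranes to the tissue around them, had low counts. Col15a1 had 1.44, 1.6 and 0.598 CPM in layer A, 0.135, 0.208 and 0.249 in layer B and 0.123, 1.34 and 0.221 in layer C. It was higher in layer A than layer B (log2 fold change 2.57, SE 0.833, edgeR adjusted p = 0.0464), and the call was lost without replicate 1 or 2 of either layer, with adjusted p-values of 0.0957 to 0.142. Col18a1, the source of endostatin, had 0.254, 0.667 and 2.64 CPM in layer A, 0.269, 0.208 and 0.145 in layer B and 0.147, 0.318 and 0.374 in layer C. Its layers A and B overlapped, and its log2 fold change of 2.58 (SE 0.778, adjusted p = 0.0334) fell to 1.18 without layer A replicate 3 (adjusted p = 0.38). Without layer B replicate 1 its adjusted p was 0.0691, and the call was also lost without layer B replicate 2.

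Laminin alpha chains bind the receptors of cells and give each laminin its character. Lama2 (ENSMUST00000092639, chromosome 10 from 26981285 to 27616843, minus strand), the chain lost in a congenital muscular dystrophy, had 13.1, 9.41 and 9.84 CPM in layer A, 0.449, 1.41 and 0.686 in layer B and 1.1, 2.29 and 1.98 in layer C. Layer A was above all other libraries, and the log2 fold change was 3.67 against layer B (SE 0.486, edgeR adjusted p = 0.000276) and 2.60 against layer C (SE 0.464, adjusted p = 0.00391). Lama1, Lama4 and Lama5, named here after their values were seen, were also higher in layer A than layer B, with log2 fold changes of 3.68, 2.24 and 3.29. Their adjusted p-values were 0.00101, 0.00323 and 0.00131 in edgeR. Lama4, a chain of endothelial cells, had 4.06, 3.4 and 4.61 CPM in layer A and 0.852, 0.83 and 0.873 in layer B. Lama3, the alpha chain of the laminin of epithelia, was the exception. It had 4.06, 2.87 and 3.24 CPM in layer A, 2.2, 2.63 and 2.6 in layer B and 1.94, 1.27 and 1.04 in layer C. Although no layer B library reached the lowest layer A library, the log2 fold change of 0.45 did not pass (SE 0.398, adjusted p = 0.503), and that of 1.26 against layer C did not either (adjusted p = 0.0607), though it did in 3 of 10 alternatives other than leaving out a library (0.0148 to 0.0457). With a library left out Lama3 missed the threshold against layer C in 8 of 9 fits, at edgeR adjusted p-values of 0.0816 to 0.184.
The beta chains went opposite ways. Lamb2 (ENSMUST00000065014, chromosome 9 from 108479857 to 108490530, plus strand), found in basement membranes of muscle, kidney and vessels, had 5.33, 7.6 and 10.8 CPM in layer A, 0.561, 1.38 and 0.707 in layer B and 0.515, 0.892 and 1.55 in layer C. Layer A did not overlap the others (log2 fold change 3.17 against layer B, SE 0.52, edgeR adjusted p = 0.00099, and 2.98 against layer C, adjusted p = 0.0035). Lamb1 (ENSMUST00000002979, chromosome 12 from 31265293 to 31329644, plus strand) had 2.71, 1.53 and 2.99 CPM in layer A, 3.97, 4.1 and 6.05 in layer B and 3.97, 5.67 and 3.1 in layer C. All layer A libraries were below those of layers B and C, but the difference did not pass the threshold (log2 fold change -0.96 against layer B, SE 0.406, edgeR adjusted p = 0.128, and -0.80 against layer C, adjusted p = 0.251).
Lamc1 (ENSMUST00000027752, chromosome 1 from 153218922 to 153332786, minus strand), the gamma chain of most laminins, had 27.7, 17.5 and 18.8 CPM in layer A, 9.6, 11.3 and 4.95 in layer B and 8.99, 10.1 and 10 in layer C. It was higher in layer A (log2 fold change 1.31 against layer B, SE 0.352, edgeR adjusted p = 0.0185, and 1.13 against layer C, adjusted p = 0.0489). The call against layer B was lost without layer A replicate 1 (adjusted p = 0.09), and that against layer C in 7 of 9 fits that each left out a library, with adjusted p-values of 0.0635 to 0.19. In 3 of 10 alternatives other than leaving out a library the call against layer C was lost too, at adjusted p-values of 0.0525 to 0.057. Lamc3, named after its values were seen, was higher in layer A than layer B (log2 fold change 3.11, edgeR adjusted p = 0.00378).

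Markers of the cells that make basement membranes were in the main higher in layer A, as were some but not all of these genes. Endothelial markers were higher in layer A than layer B for 11 of 12 (summed level 141 to 171 CPM against 10.1 to 26.2, and 18.7 to 32.3 in layer C). Mural cell markers were higher for 12 of 12 (262 to 423 CPM against 19.7 to 64.2, and 53.1 to 77.8 in layer C), and so were astrocyte markers for 12 of 12 (5114 to 10753 CPM against 736 to 1229, and 1269 to 1749 in layer C). The median log2 fold changes of these 3 lists were 3.06, 3.39 and 3.09 for A against B, while those of Col4a1 and Col4a2 were 0.61 and 0.23. Of 10 microglia and macrophage markers 8 were higher in layer A (140 to 172 CPM against 21.6 to 56.3), and of 8 oligodendrocyte markers 1 was (168 to 272 CPM against 44.2 to 221). Of 11 neuron markers 2 were higher and 6 lower, against 10.7% higher and 5.83% lower among all tested transcripts. Of 7 choroid plexus and ependymal markers 3 could be tested and 1 was higher, with Folr1 and Otx2 at 0 in all libraries of layers A and B. The part of these cells in the results was not tested.

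The chains that make up laminin therefore had other proportions in layer A, which a ratio within a library shows without any scaling between libraries. Shares were taken from counts per kb of the 1 transcript chosen per gene and are given as a description with no test. Of the beta chains, Lamb2 made up 66.9%, 83.6% and 77.3% in the libraries of layer A, 12.6%, 24.7% and 10.4% in layer B and 11.1%, 13.9% and 33.3% in layer C. Among the chosen transcripts, most beta counts were thus from Lamb2 in layer A and from Lamb1 in layers B and C. Behind these shares stand 95 to 563 counts per library. All transcripts of Lamb1 together had 2.23 times the mean count of the chosen one, while Lamb2 had 1 counted transcript. Shares over whole genes would give Lamb1 more weight, and which chain leads in layer A on that basis was not tested. Of the alpha chains, Lama3 made up 11.5% ± 1.44 (SD, n = 3) in layer A, 45% ± 3.12 in B and 23% ± 10 in C, and Lama2 40.1% ± 6.23, 16.2% ± 7.57 and 30.5% ± 8.51. Within collagen IV, Col4a5 made up 13.2%, 25.2% and 8.96% in layer A and at most 1.27% in a layer B library and 2.45% in a layer C library. These shares too leave out other transcripts of some genes. All transcripts together had 2.93 times the mean count of the chosen one for Col4a5, against 1.01 for Col4a1 and Col4a2. For Lama4 it was 2.02 times and for Lama5 1.81, while Lama2 and Lama3 had 1 counted transcript each.

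**Figure D4:**
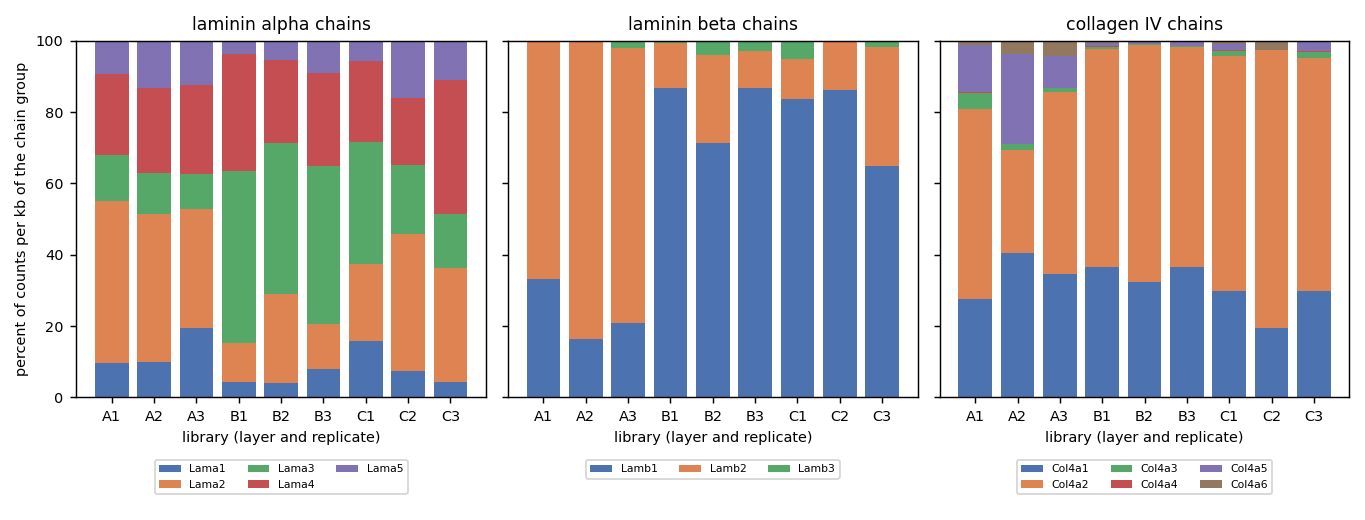
Percent of counts per kb taken by each chain, by 1 transcript per gene, within the laminin alpha and beta chains and within collagen IV (stacked bars, 1 per library). Lamb2 takes 66.9% to 83.6% of the beta chains in layer A and 10.4% to 33.3% in the other layers.

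The balance of fibrillar against basement membrane members was measured as the log2 ratio of their summed counts per kb within each library. It was -1.37, -1.73 and -0.81 in layer A, -4.18, -3.79 and -3.38 in layer B and -3.67, -3.20 and -2.73 in layer C. Basement membrane genes, with the laminins counted, had the larger sum in all 9 libraries, by the least in layer A, which did not overlap the other layers. The mean of layer A was above that of layer B by 2.48, a 5.59-fold higher ratio, and above that of layer C by 1.90, a 3.73-fold higher ratio. The SD within a layer was 0.465, 0.4 and 0.469 in layers A, B and C. With the mean of log2 values over members in place of the sum, which gives rare genes equal weight, these differences were 0.88 and 0.67. Layer A then overlapped the others, since its replicate 2 had -0.996, against -0.970 in layer B replicate 3 and -0.830 in layer C replicate 3. Fibrillar members took 20.5% ± 4.64 (SD, n = 3) of the members' counts per kb in layer A, 4.06% ± 0.917 in B and 5.43% ± 0.846 in C. Col1a1, Col1a2 and Col3a1 made up 64.9% ± 3.73 of the fibrillar sum in layer A, 16.1% ± 11.5 in B and 21.8% ± 7.71 in C.

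**Figure D5:**
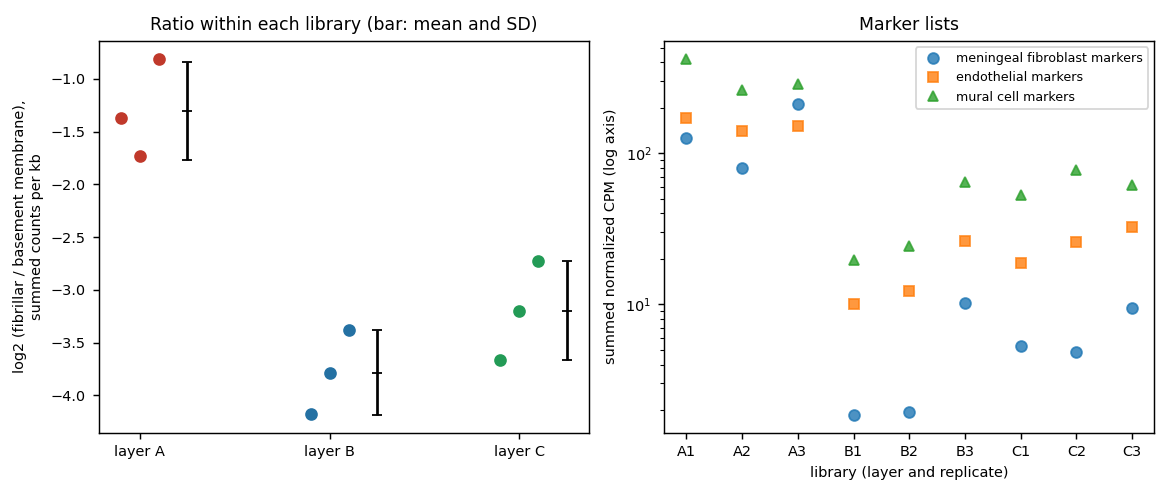
Left, log2 ratio of the summed counts per kb of fibrillar over basement membrane members in each library, with mean and SD per layer. Right, summed normalized CPM of 3 marker lists in each library, on a log axis. Layer A libraries lie at ratios from -1.73 to -0.81 and the others from -4.18 to -2.73, and all 3 marker sums are higher in every layer A library than in any other.

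The remaining collagens held the largest member by level in layers B and C. Col25a1 (ENSMUST00000106353, chromosome 3 from 130180891 to 130599877, plus strand) encodes a collagen that spans the membrane of neurons and whose shed part occurs in amyloid plaques. It had 5.33, 7.87 and 6.87 CPM in layer A, 16.7, 11.8 and 18.8 in layer B and 10.9, 20.4 and 25 in layer C. All layer A libraries were below the rest, with log2 fold changes of -1.23 against layer B (SE 0.359, edgeR adjusted p = 0.0279) and -1.49 against layer C (SE 0.361, adjusted p = 0.0165). Leaving out any layer A library, or replicate 1 or 3 of layer B, put the adjusted p against layer B between 0.0555 and 0.113 at log2 fold changes of -1.37 to -1.03. Without layer A replicate 1 or layer C replicate 2 or 3 it was 0.0503 to 0.0751 against layer C. Per kb, Col25a1 had the highest mean level of all members in layer B (2.35 CPM per kb) and in layer C (2.8), while in layer A that was Lamc1 (2.8), followed by Col1a2 (2.22). Col25a1 took 4.1% ± 1.74 (SD, n = 3) of the members' counts per kb in layer A, 18.8% ± 4.87 in B and 19.6% ± 6.9 in C.
Col6a4, a chain of the beaded filaments of collagen VI, was also lower in layer A than layer B, at very low counts. Its libraries held 0, 1 and 3 counts in layer A, 27, 22 and 14 in layer B and 6, 7 and 23 in layer C. The log2 fold change was -3.00 (SE 0.922, edgeR adjusted p = 0.0366), and it missed the threshold in 6 of 9 fits that each left out a library, with adjusted p-values from 0.0521 to 0.12.
Other chains of collagen VI did not follow it. Col6a1 had 2.62, 1.07 and 5.33 CPM in layer A, 0.695, 1.8 and 0.811 in layer B and 2.03, 4.2 and 2.2 in layer C, and all layers overlapped (log2 fold change 1.48 for A against B, edgeR adjusted p = 0.0974, and 0.14 for A against C, adjusted p = 0.919). Col6a2, its partner and neighbour on chromosome 10, named after its values were seen, was higher in layer A than in both others (2.80 and 2.65, adjusted p = 0.00465 and 0.0113, and 0.0763 at most against layer C without layer A replicate 3 or layer C replicate 1). Counts per kb of Col6a1 were 0.733 to 1.19 times those of Col6a2 in layer A, 2.5 to 2.71 times in layer B and 4.71 to 7.06 times in layer C. The 3 layers did not overlap in this ratio, which was chosen after the values were seen. It rests on 1 transcript per gene. All transcripts together had 1.79 times the mean count of the chosen one for Col6a2 and 1.005 times for Col6a1.
Of the collagens that bind to fibrils, Col9a3 had 5.92, 3.8 and 3.56 CPM in layer A, 0.224, 0.369 and 0.998 in layer B and 0.466, 0.764 and 0.808 in layer C. Layer A did not overlap the others (log2 fold change 3.04 against layer B, SE 0.563, edgeR adjusted p = 0.00216, and 2.69 against layer C, adjusted p = 0.00802, or 0.0615 without layer C replicate 1). Exons of Tcfl5 overlap 7.68% of its transcript, and the libraries do not keep the strand. Col12a1 had 4.06, 2.53 and 5.85 CPM in layer A, 1.91, 3 and 2 in layer B and 1.32, 1.02 and 0.731 in layer C. It passed the threshold against layer C (log2 fold change 2.04, SE 0.457, adjusted p = 0.0114) and not against layer B (0.86, adjusted p = 0.208). Col19a1, a collagen known from interneurons, had 1.87 to 2.87 CPM in layer A, 1.79 to 2.01 in B and 2.08 to 3.07 in C, and passed in no comparison. Its chosen transcript is annotated as not coding for protein.
Col23a1, a collagen of cell membranes, had 3.8, 2.73 and 7.42 CPM in layer A, 0.74, 1.68 and 1.52 in layer B and 3.01, 3.57 and 6.52 in layer C. Layer B was the low one, and layers A and C overlapped. Against layer B layer A was higher (log2 fold change 1.84, SE 0.493, edgeR adjusted p = 0.018), though not without layer A replicate 3 (1.33, adjusted p = 0.101) or layer B replicate 1 (1.59, adjusted p = 0.0746). Col26a1 had 0.507, 1.13 and 1.77 CPM in layer A, 0.74, 1.52 and 1.6 in layer B and 0.123, 0.127 and 0.485 in layer C, so that here layer C was the low one. Its log2 fold change was 2.08 for A against C (SE 0.665, edgeR adjusted p = 0.0557), and it passed in 4 of 9 alternatives other than leaving out a library, with adjusted p-values of 0.0208 to 0.0444. With a library left out Col26a1 missed the threshold in 7 of 9 fits, at edgeR adjusted p-values of 0.0575 to 0.228. Col8a1 and Col14a1, named after their values were seen, were higher in layer A than layer B by 3.02 and 2.62 on the log2 scale (adjusted p = 0.00878 and 0.0133), with Col14a1 at 0.0613 and 0.0712 without layer A or layer B replicate 1.

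Between layers A and C, 19 of the 43 tested members passed the threshold, 18 higher in layer A and 1, Col25a1, lower (edgeR's quasi-likelihood test). The same layer A libraries enter this comparison and the one with layer B, so the comparisons are not independent. Of all tested transcripts 11.3% passed, 6.98% higher and 4.35% lower in layer A, against 44.2% of the tested members. The median log2 fold change was 1.68 over the tested members and -0.01 over all tested transcripts. By class, 6 of 10 fibrillar collagens, 1 of 6 collagens of basement membranes, 7 of 10 laminins and 4 of 17 other collagens were higher in layer A. The 1 basement membrane collagen was Col4a5. Without layer C replicate 1, 8 members and 1369 of all transcripts passed, and without layer A replicate 3, 12 members did. Of the 19, 7 passed in all 9 fits that each left out a library: Col1a1, Col1a2, Col4a5, Col12a1, Lama1, Lama2 and Lamb2. Among fibrillar collagens 2 of 10 passed without layer C replicate 1, and 3 of 9 without replicate 1 or 3 of layer A. Among the 16 tested collagens and laminins of basement membranes 8 passed with all libraries and 4 without layer C replicate 1. Against layer C, all 10 tested meningeal fibroblast markers were also higher in layer A, as were 10 of 12 endothelial, 11 of 12 mural and 12 of 12 astrocyte markers.

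Layers B and C differed in no member at the threshold. By edgeR 0 of 43 members passed, as did 0 of 56416 transcripts, and 7 members had an unadjusted p under 0.05, against 4.11% of all tested transcripts. DESeq2 called 0 of the 36 members that it gave an adjusted p. Of the 43 with an unadjusted p in DESeq2, 9 had one under 0.05. The 7 members were Lama2, Col11a1, Col27a1, Col6a1 and Col23a1, lower in layer B, and Col12a1 and Col26a1, lower in layer C. The smallest p-values were those of Col23a1 (log2 fold change -1.74, SE 0.489, edgeR adjusted p = 0.705) and of Col26a1 (2.22, SE 0.655, adjusted p = 0.731). For Col26a1 no layer C library reached a layer B library, and for Col23a1 no layer B library reached a layer C library. Lama2 had -1.07 (adjusted p = 1), and its layers overlapped. The median log2 fold change over the members was -0.35, against 0.07 over all tested transcripts.

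Proteins that work with collagens and laminins were counted in 4 lists, each by the same test. Among all tested transcripts 10.7% were higher and 5.83% lower in layer A than layer B. Of 24 tested genes of collagen processing, the enzymes and carriers that modify, fold and link the chains, 8 were higher and 0 lower in layer A than layer B. Lox, which links collagen chains outside the cell, had 1.01 ± 0.0104 CPM (SD, n = 3) in layer A and 0.0228 ± 0.0231 in layer B (log2 fold change 5.33, edgeR adjusted p = 0.00176). Every layer B library of Lox was under the limit of 3 counts, so the size of this fold is uncertain. Plod1, a lysyl hydroxylase, had 5.66 ± 1.34 and 0.968 ± 0.0701 CPM (2.55, adjusted p = 0.00236). The median over the list was 0.65. Of 12 other proteins of basement membranes, 7 were higher and 1 was lower, with a median of 2.07. Fn1, which encodes fibronectin, had 49.3 ± 16 CPM in layer A and 3.37 ± 2.35 in layer B (3.87, adjusted p = 0.000245), and Nid1, whose product ties laminin to collagen IV, had 13.9 ± 5.95 and 1.32 ± 0.78 CPM (3.38, adjusted p = 0.000401). Pxdn, a peroxidase that links collagen IV, was the lower one, with 4.44 ± 1.21 CPM in layer A and 10.6 ± 2.62 in layer B (-1.24, adjusted p = 0.0355).
Of 14 tested receptors of collagens and laminins, 9 were higher and 0 lower in layer A, with a median of 2.28. Ddr2, a receptor for fibrillar collagen, had 11.1 ± 1.71 CPM (SD, n = 3) in layer A and 0.829 ± 0.307 in layer B (log2 fold change 3.73, edgeR adjusted p = 0.000177), and Itga1, an integrin chain that binds collagen, had 7.41 ± 1.44 and 0.564 ± 0.255 CPM (3.70, adjusted p = 0.000318). Of 9 tested matrix proteases and their inhibitors, 4 were higher and 3 lower. Timp3, an inhibitor held in the matrix, had 205 ± 67 CPM in layer A and 21.3 ± 11.9 in layer B (3.27, adjusted p = 0.000227), and the protease gene Mmp14 rose with it (3.40, adjusted p = 0.00153). Mmp17 had 21.8 ± 6.53 CPM in layer A and 47.9 ± 3.18 in layer B (-1.13, adjusted p = 0.0221), and Mmp9, under the limit of 3 counts in every layer A library, was lower as well (-4.24, adjusted p = 0.0285). Against layer C the 4 lists had 6 higher and 1 lower, 6 and 0, 5 and 0, and 2 and 2 genes past the threshold. Among all tested transcripts 6.98% were higher and 4.35% lower in layer A than layer C.

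Several members lie in pairs on a chromosome. Col4a1 and Col4a2 are transcribed away from each other, as are Col4a4 and Col4a3 with 126 bp between them and Col4a6 and Col4a5 with 1.31 kb. Within the last pair Col4a5 was tested and called, and Col4a6, with 4, 9 and 57 counts in layer A, 3, 3 and 1 in layer B and 6, 14 and 5 in layer C, had too few counts in most libraries to be tested. Col3a1 and Col5a2 lie 24.6 kb apart on chromosome 1, on opposite strands and with their ends towards each other, and both were higher in layer A. Promoter windows of 300 bases around the start, from RefSeq on GRCm38.p6, matched 39 of the 54 members. The sequence GGGCGG, searched on both strands, occurred in 58.1% of the 43 member windows and in 35.7% of all 32851 windows, and the median GC content was 59.3% and 52.7%. CCAAT, on both strands, occurred in 32.6% and 37.4%, and TATAAA, on the sense strand, in 11.6% and 8.32%. The example is Col1a2, the member most counted among fibrillar collagens. The 250 bases before its RefSeq start are given for GRCm38 chr6:4505368-4505617 on the plus strand, with 1 CCAAT and 2 GGGCGG in capitals. The transcript counted here begins before that start, at 4505493, so the later printed bases, with the CCAAT, lie inside it.
Col1a2: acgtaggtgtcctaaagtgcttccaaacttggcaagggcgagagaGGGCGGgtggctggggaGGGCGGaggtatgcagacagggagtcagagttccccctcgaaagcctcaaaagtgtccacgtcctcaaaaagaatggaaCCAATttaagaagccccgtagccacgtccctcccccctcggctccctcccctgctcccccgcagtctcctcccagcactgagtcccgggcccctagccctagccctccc
These matches describe letters in a window and no binding was measured.

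The 11 members without a test had under 10 counts in at least 7 of the 9 libraries. They were Col2a1, Col4a4, Col4a6, Col6a3, Col6a6, Col8a2, Col9a1, Col13a1, Col17a1, Col28a1 and Lamb3. Col2a1, the collagen of cartilage, had 0 to 5 counts in each library. Lamb3, a beta chain of the laminin of epithelia, had 0, 0 and 8 counts in layer A, 1, 7 and 7 in layer B and 7, 0 and 7 in layer C. Of these, Col4a6 and Col8a2 passed between layers A and B when no filter on low counts was set, as did Col4a6 and Col13a1 on sums of counts by gene, and Col13a1 passed between layers A and C in both settings. The tested members without a call against layer B and not described above, among them Col24a1, Col20a1 and Col7a1, had adjusted p-values from 0.0578 to 0.908 in edgeR.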

How the data were processed

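The piriform cortex of mice was cut by laser into 3 layers, and total RNA was amplified and sequenced from 3 samples of each. The deposited values are raw read counts per Ensembl transcript, made by the authors with, per the submitters' processing notes, bcl2fastq 1.8.4, Bowtie and HTSeq 0.5.3; the counting options and the annotation release are not given in the sources used here. The protocol counts no molecular identifiers, so amplified copies count as reads, and reads shared by transcripts of a gene or by similar genes may be lost or split.

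Transcripts were joined to GENCODE M21 (GRCm38) by identifier, which matched 82807 of 95533. Counts were scaled by TMM and fitted over all 9 samples with edgeR 4.0.16 (R 4.3.3; quasi-likelihood F-test, Benjamini-Hochberg adjustment, threshold 0.05), for the 56416 transcripts that reached 10 counts in 3 or more samples. The standard error is the absolute log2 fold change over the square root of F. The script was tested on simulated data. Shares and ratios used counts per kb of transcript. DESeq2 1.42.0, other scaling and filters, sums by gene, a replicate block and leaving out each library were the alternatives.

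Named members were, in each of 4 classes, the 6 tested ones with the highest mean level, plus any lower in layer A past the threshold, plus any with an unadjusted p under 0.05 between layers B and C; of each list, the 2 called genes with the smallest p in each direction. The members, lists and rules were chosen with earlier results of these data known. Where a named gene falls outside the rule, the text says so. Results for 1 tested member are not reported here.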

Additional observations from a re-analysis of the deposited data

How the results depend on the processing

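The number of members past the threshold between layers A and B was 26 with the settings reported, 26 with the size factors of DESeq2, 28 in the test of DESeq2, 30 of 54 without a filter on low counts, 29 on sums of counts by gene, 28 with 1 transcript per gene and 25 in a fit of the 6 libraries compared. Between layers A and C it was 19, and 19 to 23 in the same alternatives. The number of all transcripts past the threshold changed too. Between layers A and B it was 9329 of 56416 with the settings reported and 11679 in the test of DESeq2. Without a filter it was 10795 of 79414, on sums by gene 4918 of 22804 and with 1 transcript per gene 5010 of 22273. Between layers A and C it was 6389 of 56416, 8883 in the test of DESeq2 and 3637 of 22804 on sums by gene. With a minimum of 10 counts in all 9 libraries, which leaves 17 members to test and removes genes that are low in a layer, 10 and 9 members passed. Of the 33423 transcripts left, 6928 and 5133 did. When each library was left out in turn, the number of members ranged from 17 to 27 between layers A and B and from 8 to 23 between layers A and C. That of all transcripts ranged from 5571 to 11336 and from 1369 to 9742. For layers B and C the number of members was 0 in every alternative. Over all transcripts DESeq2 called 130 and edgeR, with the settings reported, 0. In the alternatives edgeR called 17 at most, without layer B replicate 3. The log2 ratio of fibrillar to basement membrane members differed by 2.48 and 1.90 between layer A and layers B and C. As a mean of log2 values per gene the differences were 0.88 and 0.67, since rare genes then weigh as much as abundant ones. In that setting layer A overlapped layers B and C. On sums of counts by gene the differences were 2.16 and 1.49, and without division by length 2.10 and 1.57. With collagen IV alone in place of all basement membrane members they were 2.71 and 2.23. The log2 ratio itself was then positive in layer A (0.31, 0.36 and 0.74) and negative in every library of layers B and C. With all basement membrane members and each library left out the differences were 2.24 to 2.70 and 1.65 to 2.13.

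The replicate numbers are shared by the layers, but deviations from the layer means correlated by 0.0353 on average over 9 pairs of the same number (-0.186 to 0.243) and by -0.0139 over 18 pairs of different numbers, so the numbers were not taken to pair the libraries. With the number as a replicate block, 26 members passed between layers A and B and 20 between layers A and C, with Col18a1 (adjusted p = 0.106) and Col6a4 (0.0619) not called against layer B and Lamc1 (0.0568) not called against layer C. Against layer B, Col11a1, higher in layer A, and Col22a1, lower in layer A, were called with the block. Col26a1 and Col8a1, both higher in layer A, were called against layer C. With the settings reported Col22a1 had a log2 fold change of -1.93 against layer B (edgeR adjusted p = 0.0578). Col22a1 was also called, lower in layer A, by DESeq2, without a filter on low counts and with 1 transcript per gene. The value of Col4a2 between layers A and C was 0.038 with the block in place of -0.24.

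Of the log2 fold changes of named members, 14 turned their sign in 1 or more alternatives, 24 values in all, none of them past the threshold with the settings reported. All but that of Col4a2 under the block came from leaving out a library. The ranges over the libraries left out were, between layers A and B, -0.61 to 0.19 for Col26a1, -0.11 to 0.62 for Col4a2 and -0.14 to 0.69 for Col5a1. Between layers A and C they were -0.41 to 0.53 for Col23a1, -0.62 to 0.60 for Col4a2 and -0.59 to 0.54 for Col6a1. Between layers B and C the collagens ranged from -0.76 to 0.0056 for Col11a2, -1.89 to 0.15 for Col15a1, -0.059 to 0.63 for Col4a1, -0.90 to 0.37 for Col4a2 and -0.018 to 0.75 for Col5a1, and the laminins from -0.10 to 0.41 for Lamb1, -0.69 to 0.34 for Lamb2 and -0.44 to 0.057 for Lamc1. The cause was not tested. Low depth limits the 11 members without a test and those with under 10 counts in a layer, such as Col3a1 in layer B.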
